A study of Solanum lycopersicum with 12 samples.

Results

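ER24 (gene3033) is a tomato gene annotated in the deposited table as an ethylene-responsive transcriptional coactivator, and it is 1 of the 22827 genes measured. It was singled out with its level in these libraries already known, which was higher in the transgenic lines than in the WT. Its own values are therefore given as a description, with no test. RefSeq gives the same gene the symbol ER24 and the synonym MBF1.

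ER24 was first isolated from tomato as a transcript that responds to ethylene, the gaseous hormone of ripening and stress. The protein belongs to the multiprotein bridging factor 1 family, coactivators that carry no activation domain of their own and link a transcription factor to the TATA-binding protein. In Arabidopsis, the family member MBF1c accumulates in heat and is needed for tolerance of heat stress. Heat shock proteins are the chaperones that keep other proteins folded in such conditions, and heat stress transcription factors switch their genes on.

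RNA was sequenced from whole Micro-Tom fruits, developing seeds included, at 5 days after anthesis. The 4 groups were untransformed WT fruits and fruits that overexpressed a sucrose transporter of grapevine (Vitis vinifera), namely VvSUC11-OE, VvSUC12-OE and VvSUC27-OE, with 3 libraries each and 12 in all. The transporter genes were driven by the 35S promoter, which is active in most plant tissues, and transformants had been selected on hygromycin. The VvSUC11-OE and VvSUC12-OE plants were T1 and the VvSUC27-OE plants T0, and each transgenic genotype was represented by a single line (line 5). Genotype therefore cannot be told apart from line in any comparison, nor from generation in those of VvSUC27-OE. In every comparison with the WT, the transporter gene also cannot be told apart from transformation and hygromycin selection, which all 3 lines shared.

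ER24 was low in WT fruits, and its mean level was 6.17 to 8.67 times as high in the transgenic lines. Where 3 values for the lines follow each other, they are in the order VvSUC11-OE, VvSUC12-OE, VvSUC27-OE. In the WT libraries its level was 11.9, 9.34 and 12.96 FPKM (fragments scaled to transcript length and to all mapped fragments, a unit that corrects for gene length and depth). In VvSUC11-OE fruits it was 88.6, 88.7 and 97.8 FPKM. In VvSUC12-OE fruits it was 93.1, 102.5 and 101.2 FPKM. All 6 of these libraries lay far above the WT, and the VvSUC11-OE and VvSUC12-OE ranges overlapped. The VvSUC27-OE libraries, with 68.7, 67.9 and 74.7 FPKM, lay between the WT and the other lines and overlapped with neither.

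**Figure D1:**
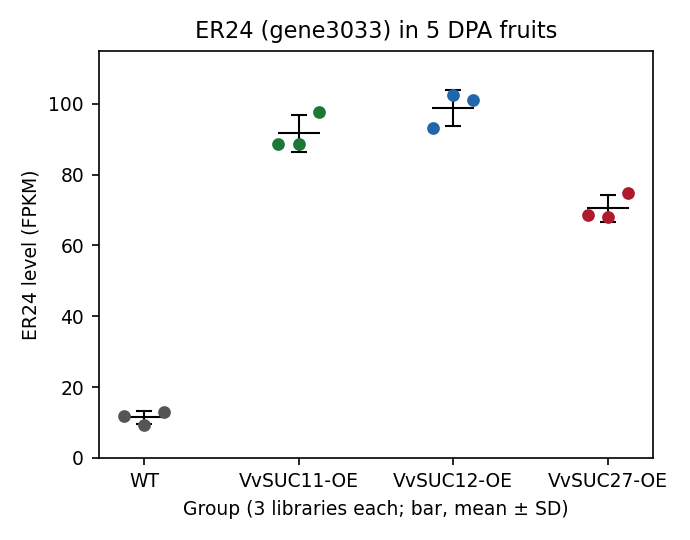
Level of ER24 in FPKM (vertical axis, from 0) in the 12 libraries, by group (horizontal axis). Points are libraries and bars are the mean ± SD of 3 libraries. The WT points sit between 9.34 and 12.96 FPKM, the VvSUC27-OE points between 67.9 and 74.7, and the points of the other lines between 88.6 and 102.5.

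The mean was 11.4 ± 1.87 FPKM in the WT, against 91.7 ± 5.29, 98.9 ± 5.07 and 70.5 ± 3.74 in the lines (SD, n = 3 each). The lines thus had 8.03, 8.67 and 6.17 times the WT mean. The spread within a group was small beside these differences, with a coefficient of variation of 16.3% in the WT and of 5.13 to 5.77% in the lines.

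The second set of deposited values shows the same order. These are fragment numbers that the authors scaled to a common library size and rounded, called scaled counts here. ER24 had 152, 131 and 171 scaled counts in the WT. It had 1188, 1160 and 1205 in VvSUC11-OE, 1163, 1240 and 1212 in VvSUC12-OE, and 905, 919 and 934 in VvSUC27-OE. On the log2(scaled count + 1) scale the difference from the WT was 2.97 (SE 0.088) for VvSUC11-OE, 2.99 (SE 0.084) for VvSUC12-OE and 2.60 (SE 0.088) for VvSUC27-OE. The VvSUC12-OE level differed from that of VvSUC11-OE by 0.02 (SE 0.045), within the spread of the libraries. The VvSUC27-OE level was lower than that of VvSUC11-OE by 0.37 (SE 0.046) and than that of VvSUC12-OE by 0.39 (SE 0.044), a gap larger than the spread of the libraries but small beside the distance to the WT. The comparisons with the WT share the same 3 WT libraries.

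The place of ER24 among all genes moved with it. Ranked by mean FPKM, it stood at 10417 of 22827 genes in the WT, with 54.4% of genes below it. It stood at 1847 in VvSUC11-OE, at 1740 in VvSUC12-OE and at 2391 in VvSUC27-OE, with 89.5 to 92.4% of genes below it. Of 164 genes annotated as heat shock proteins, co-chaperones or heat stress factors, 94 had a higher mean FPKM than ER24 in the WT. In the lines, 23, 25 and 29 of them did. By the size of the log2 fold change against the WT, ER24 was gene 289 of 19128 tested in VvSUC11-OE, 131 of 18900 in VvSUC12-OE and 156 of 18871 in VvSUC27-OE, counted from the highest.

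The libraries were of similar size after the authors' scaling, with 20530052 to 21795363 scaled counts each. The 6 genes taken as markers of young fruit summed to 24150 to 25750 FPKM in the WT, 39880 to 42390 in VvSUC11-OE, 28540 to 29630 in VvSUC12-OE and 21480 to 22800 in VvSUC27-OE, with none of them listed at 0 in every library of a group but 1 at 3 or fewer scaled counts in VvSUC11-OE and in VvSUC27-OE. Fewer cells of a type and less RNA per cell cannot be told apart in whole fruits. The 37 markers of developing seeds (oleosins, storage proteins and late embryogenesis abundant proteins) summed to 455 to 480 FPKM in the WT, 423 to 507 in VvSUC11-OE, 495 to 546 in VvSUC12-OE and 250 to 252 in VvSUC27-OE. Of these markers, 7 were listed at 0 in all WT libraries, and 2, 13 and 16 in every library of the respective line. By the DEG rule given below, 12 of 18 seed markers tested against the WT rose and 0 fell in VvSUC11-OE (66.7% and 0%, against 7.39% and 7.33% of all genes). In VvSUC12-OE 1 rose and 1 fell of 7 (14.3% each, against 3.31% and 5.3%). In VvSUC27-OE 0 rose and 3 fell of 7 (0% and 42.9%, against 3.8% and 7.21%). With 7 genes tested, 1 call moves the share widely. The 30 markers of photosynthetic tissue summed to 12640 to 13730 FPKM in the WT, 10680 to 11280 in VvSUC11-OE, 8975 to 9466 in VvSUC12-OE and 12230 to 12710 in VvSUC27-OE. The 26 markers of pollen and anthers ranged from 2234 to 2549 FPKM over all libraries. The 3 markers of ripe fruit summed to 28.2 to 29.4 FPKM in the WT, 64.1 to 67.6 in VvSUC11-OE, 29.2 to 30.4 in VvSUC12-OE and 39.5 to 41.0 in VvSUC27-OE. The part of these tissues in the level of ER24 was not tested.

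No other gene of the bridging factor family was called different from the WT. A DEG is counted here where limma gave a Benjamini-Hochberg adjusted p (FDR) below 0.01 and an absolute log2 fold change above 1. Against the WT, 7.39% of all genes tested rose and 7.33% fell by this rule in VvSUC11-OE, 3.31% rose and 5.3% fell in VvSUC12-OE, and 3.8% rose and 7.21% fell in VvSUC27-OE. Of the 4 other genes annotated as multiprotein bridging factors, 3 were tested and 0 were DEGs in any of these comparisons by limma. In each comparison, 2 of the 3 had an unadjusted p under 0.05, with log2 fold changes of at most 0.53 in size. The share of all genes past an unadjusted p of 0.05 was not determined. Counts at that cut, here and below, therefore do not set a group of genes apart from all genes.

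The levels of these relatives show how little they moved. The gene gene23701 had 310.2, 287.0 and 312.0 FPKM in the WT and 248 to 319 FPKM in the transgenic libraries, so it was the most abundant family member in every group. The gene gene28289 had 179, 163 and 175 FPKM in the WT and 136 to 176 in the lines. The gene gene18677 had 66.0, 58.8 and 66.5 FPKM in the WT, 90.7 to 94.0 in VvSUC11-OE, 71.6 to 75.6 in VvSUC12-OE and 52.7 to 67.6 in VvSUC27-OE. Its log2 fold changes were 0.53 (FDR = 4.39e-07), 0.16 (FDR = 0.0145) and -0.11 (FDR = 0.201) in that order of lines. RefSeq calls this gene MBF1c, but the deposited annotation calls it factor 1b, so the symbol alone does not show which of the tomato genes corresponds to the heat-induced MBF1c of Arabidopsis. The last relative, gene22219, was listed at 0 in 10 of 12 libraries and was not tested. In the WT, ER24 was the lowest of the 4 detected family members, and in VvSUC12-OE and VvSUC27-OE it had passed gene18677 by mean FPKM.

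**Figure D2:**
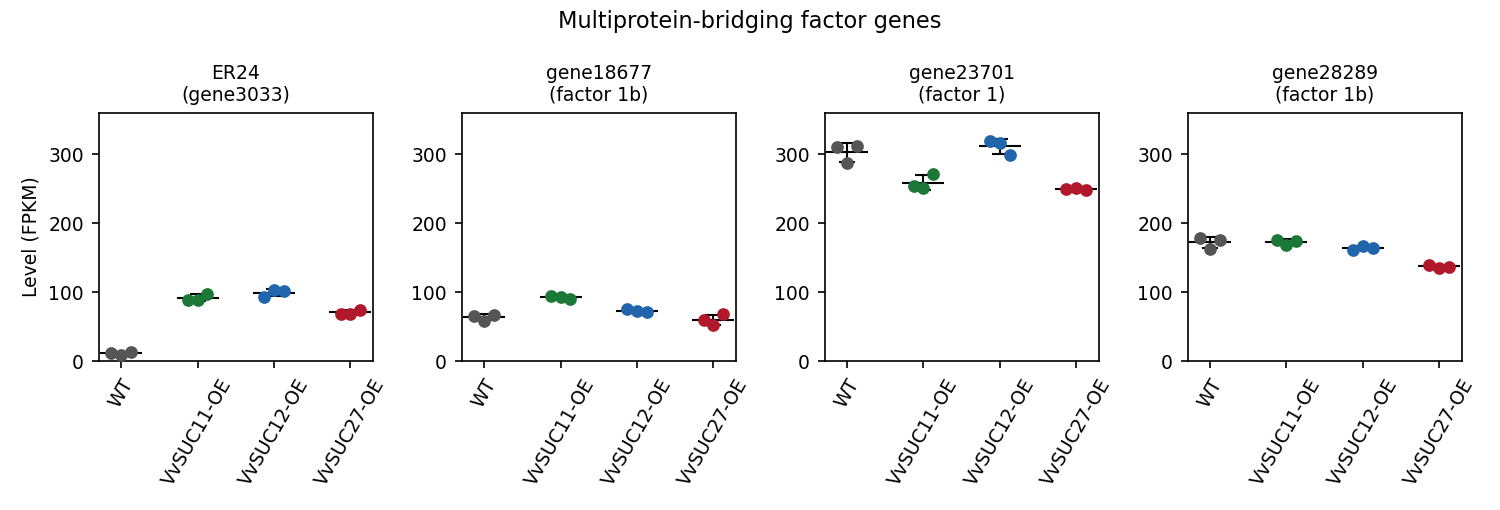
Level in FPKM (vertical axis, the same scale in each panel) of ER24 and of the 3 other detected bridging factor genes, by group. Points are libraries and bars the mean ± SD of 3. ER24 goes from 11.4 FPKM in the WT to 70.5 to 98.9 in the lines, while no other panel shows an absolute log2 fold change against the WT above 0.53.

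Among the 8 genes with an informative annotation whose profile was nearest to that of ER24, 5 were heat shock genes. Likeness was measured as the mean absolute difference between log2(scaled count + 1) profiles over the 12 libraries, each set to its own WT mean, among 16500 genes that averaged 50 scaled counts or more. Since this measure includes the distance to the shared WT libraries, it is a description of the profiles and no test was made. The nearest gene was gene25417, a BAG family regulator 5 of mitochondria that by its family assists HSP70, at a mean difference of 0.159. Its level was 5.93, 5.63 and 6.09 FPKM in the WT and 39.7, 44.0 and 47.8 in VvSUC11-OE. In VvSUC12-OE it was 59.2, 67.4 and 54.7 FPKM, and in VvSUC27-OE 32.4, 36.7 and 47.0. As for ER24, no transgenic library came near the WT, but VvSUC27-OE overlapped with VvSUC11-OE.

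Among the 8 genes with an informative annotation, gene25417 was followed by gene14852, an HSP90 annotated as heat shock protein 83-like, at a difference of 0.226. Over all ranked genes it stood at place 3. Its level was 10.1 to 10.98 FPKM in the WT, 64.8 to 66.9 in VvSUC11-OE, 86.7 to 95.9 in VvSUC12-OE and 49.3 to 53.3 in VvSUC27-OE, with no overlap between any groups. The HSP70 gene27182 followed at 0.258, with 6.36 to 7.69 FPKM in the WT, 47.3 to 48.4 in VvSUC11-OE, 59.4 to 70.4 in VvSUC12-OE and 58.5 to 65.7 in VvSUC27-OE. The HSP90 gene6983 stood at 0.345 and the class II small heat shock protein gene19995 (Le-HSP17.6) at 0.409, and both were highest in VvSUC12-OE. The remaining 3 were gene11008, a sulfate transporter 2.1-like gene, at 0.273, gene3066, a cationic peroxidase, at 0.301, and gene25888, annotated as hippocampus abundant transcript-like, at 0.397. The sulfate transporter and the peroxidase were much less abundant than ER24, at 0.836 to 1.26 and 0.789 to 1.14 FPKM in the WT. The 50 nearest of the 16500 ranked genes held 13 of the 138 ranked heat shock genes and 1 of the 100 ranked ethylene genes. Among the 100 nearest, they were 17 and 2. With so small a part of all ranked genes among the nearest, 1 or 2 ethylene genes do not show a lack of them.

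**Figure D3:**
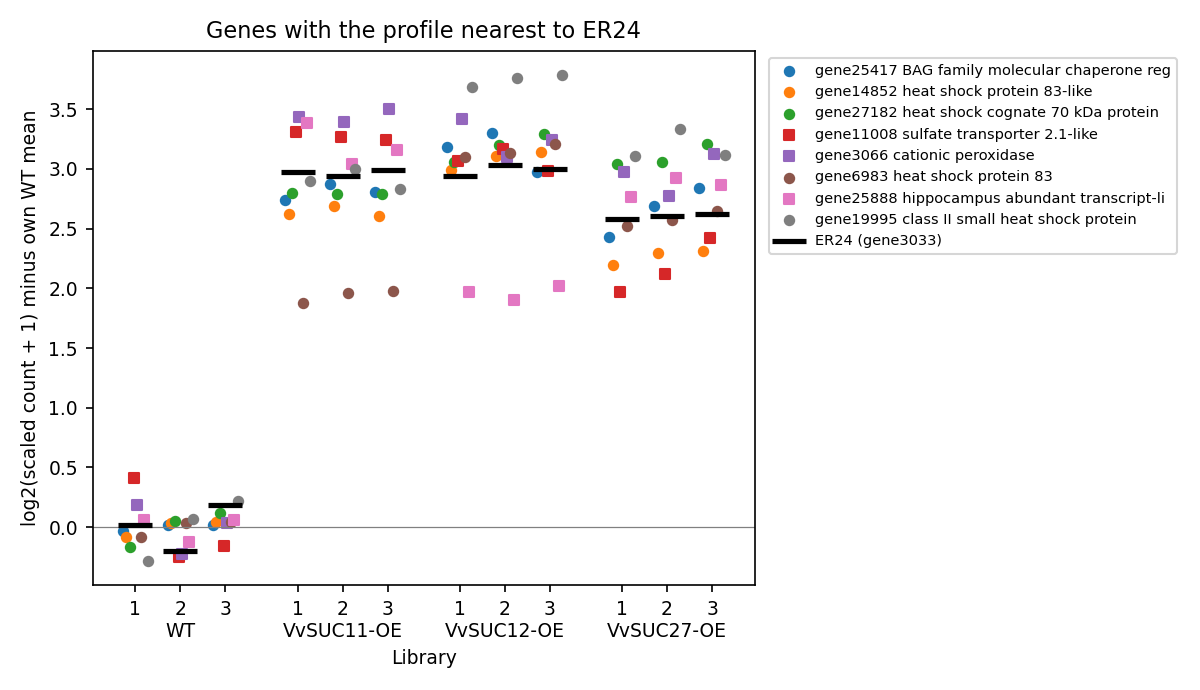
Difference of log2(scaled count + 1) from the gene's own WT mean (vertical axis) in each of the 12 libraries (horizontal axis). Shown are ER24 (black bars) and the 8 genes nearest to it among those with an informative annotation. Circles are heat shock genes and squares other genes. All 9 genes lie near 0 in the WT and above it in every transgenic library, and ER24 sits 2.97, 2.99 and 2.60 above the WT mean in the 3 lines.

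Among heat shock genes, the share called higher was above that of all genes in each line. In VvSUC11-OE, 30 of 149 tested heat shock genes rose and 2 fell, which is 20.1% and 1.34% against 7.39% and 7.33% of all genes. In VvSUC12-OE, 34 of 148 rose and 1 fell (23.0% and 0.676%, against 3.31% and 5.3%). In VvSUC27-OE, 29 of 146 rose and 8 fell (19.9% and 5.48%, against 3.8% and 7.21%). The median log2 fold change was 0.28, 0.19 and 0.17 in that order, against -0.0295, -0.0051 and 0.0019 over all genes tested. Most heat shock genes were thus not DEGs, and the calls were concentrated in a few roles. The list was drawn from words in the annotation with earlier results of these data known, and its counts are no independent support.

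Small heat shock proteins, which hold unfolding proteins in a soluble state, had the most calls. Of 25 tested, 15 rose and 0 fell in VvSUC11-OE, and 18 rose and 0 fell in VvSUC12-OE. Of 23 tested in VvSUC27-OE, 15 rose and 2 fell. The shares that rose lay far above the 7.39, 3.31 and 3.8% of all genes. The share that fell in VvSUC27-OE was 8.7%, near the 7.21% of all genes. The median log2 fold changes of the role were 1.47, 1.61 and 1.37, and the summed level of its 29 genes went from 417 to 440 FPKM in the WT to 968 to 1050, 1213 to 1338 and 814 to 894 FPKM in the lines. In the summed level the VvSUC27-OE libraries were the lowest of the lines, as for ER24, but VvSUC12-OE lay above VvSUC11-OE without overlap, which ER24 did not.

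Single small heat shock genes differed widely in level. The class I gene gene16550 had the largest change among those that averaged 50 scaled counts or more. It was at 0, 0.643 and 0.0845 FPKM in the WT, at 36.3, 41.0 and 52.2 in VvSUC11-OE, at 91.3, 94.3 and 98.8 in VvSUC12-OE and at 13.7, 19.5 and 20.6 in VvSUC27-OE. The 4 groups did not overlap, and with so few WT fragments the fitted log2 fold changes of 7.87, 8.95 and 6.65 depend on the pseudocount. The class I gene gene21843 was at 42.7, 49.4 and 43.4 FPKM in the WT, 318, 300 and 314 in VvSUC11-OE, 163, 180 and 181 in VvSUC12-OE and 87.0, 85.5 and 95.5 in VvSUC27-OE. It rose in VvSUC11-OE (log2 fold change 2.77, FDR = 1.35e-14) and VvSUC12-OE (1.90, FDR = 7.97e-15), and in VvSUC27-OE it stood at 0.99 (FDR = 2.3e-10), just under the threshold of 1. The abundant class I gene gene16555 was not a DEG in any line, at 179 to 200 FPKM in the WT and log2 fold changes of 0.06, 0.63 and -0.04. Class I genes are near copies of each other, and how the authors' counting split reads between them is not given in the sources used here, so single values of this family are uncertain.

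Among the large chaperones, the genes that rose were of low level in the WT, except gene27178. HSP70 proteins bind and refold other proteins, and 5 of 18 tested rose in VvSUC11-OE, 6 of 17 in VvSUC12-OE and 6 of 17 in VvSUC27-OE, with 0 lower calls in each. The shares that rose were 27.8, 35.3 and 35.3%, against 7.39, 3.31 and 3.8% of all genes. The HSP70 gene with the largest change was gene27182, described above, with log2 fold changes of 2.79, 3.18 and 3.10. The most abundant one in every group, gene21737, a constitutive heat shock cognate, was at 1168 to 1179 FPKM in the WT and changed by 0.20, -0.15 and 0.12. The next by its mean over the 12 libraries, gene27178, was at 230 to 234 FPKM in the WT, 455 to 469 in VvSUC11-OE, 385 to 409 in VvSUC12-OE and 637 to 647 in VvSUC27-OE. It rose in VvSUC11-OE (1.02) and VvSUC27-OE (1.47) but, at 0.77, was not called in VvSUC12-OE.

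HSP90 proteins, which mature signalling proteins, gave 2 higher calls of 6 in each line, and these were gene14852 and gene6983. That share was 33.3%, against 7.39, 3.31 and 3.8% of all genes. The abundant members gene19010 (heat shock cognate 80) and gene28350 (Hsp90-1) had log2 fold changes of -0.07, -0.37 and 0.04, and of 0.32, 0.48 and 0.62, and were not called. The disaggregase ClpB1 (gene8899, HSP100), which pulls proteins out of aggregates, was at 14.7 to 15.3 FPKM in the WT, 44.5 to 49.9 in VvSUC11-OE, 81.2 to 88.9 in VvSUC12-OE and 55.2 to 57.1 in VvSUC27-OE. It rose in all lines, by 1.71 (FDR = 1.55e-13), 2.52 (FDR = 7.87e-19) and 1.91 (FDR = 1.68e-17). Its relative ClpB4 of mitochondria (gene14649) had log2 fold changes of -0.06, -0.70 and -0.24 and was not called. The BiP chaperones of the endoplasmic reticulum showed no higher call. Their abundant members gene21243 and gene7950 had log2 fold changes of -0.63 and -0.40 in VvSUC11-OE and of 0.41 and 0.21 in VvSUC27-OE, and the scarce Solanum_lycopersicum_newGene_1392 fell in all 3 lines, by 1.35, 1.51 and 1.81 on the log2 scale.

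Of 54 tested DnaJ genes, whose proteins hand clients to HSP70, 2 rose and 1 fell in VvSUC11-OE, 2 rose and 0 fell in VvSUC12-OE, and 1 rose and 3 fell in VvSUC27-OE. The shares that rose were 3.70, 3.70 and 1.85%, against 7.39, 3.31 and 3.8% of all genes. Of 20 BAG and other co-chaperone genes, 2 (10%) rose in VvSUC11-OE, 2 (10%) rose in VvSUC12-OE, and 1 (5%) rose and 1 fell in VvSUC27-OE. Apart from gene25417, the BAG gene that rose was gene2230 (BAG regulator 6), with 4.06, 4.04 and 4.08 FPKM in the WT, 32.8, 34.3 and 34.8 in VvSUC11-OE and 43.6, 45.6 and 46.8 in VvSUC12-OE. In VvSUC27-OE it was at 6.71, 7.07 and 7.31 FPKM, a log2 fold change of 0.76 (FDR = 6.79e-09) that was not called. BAG regulator 6 was therefore far lower in VvSUC27-OE than in the other lines, by 2.29 against VvSUC11-OE (FDR = 1.27e-16) and 2.68 against VvSUC12-OE (FDR = 2.55e-19), where ER24 was lower by 0.37 and 0.39.

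Heat stress transcription factors gave 3 higher calls of 20 in each line, and 0, 0 and 1 lower calls. The share that rose was 15.0% in each line, against 7.39, 3.31 and 3.8% of all genes. HSFA7a (gene22594) was at 4.66 to 5.13 FPKM in the WT, 16.6 to 20.1 in VvSUC11-OE, 19.9 to 22.9 in VvSUC12-OE and 13.7 to 14.3 in VvSUC27-OE. It rose by 1.93, 2.09 and 1.51 (FDR = 1.1e-10, 1.87e-13 and 7.82e-11), and like ER24 its VvSUC27-OE libraries lay below both other lines, whose ranges overlapped narrowly. HSF24 (gene6324) was at 18.8 to 21.8 FPKM in the WT and 37.7 to 44.4 in the lines, with log2 fold changes of 0.97, 1.03 and 1.03 on both sides of the threshold. HSF30 (gene20040), the most abundant factor by its mean over the 12 libraries, was at 45.8 to 48.8 FPKM in the WT and changed by -0.37, 0.37 and -0.24.

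Between the lines, heat shock genes were called in both directions against VvSUC11-OE, and only lower in VvSUC27-OE against VvSUC12-OE. In VvSUC12-OE against VvSUC11-OE, 13 of 150 tested heat shock genes rose and 6 fell (8.67% and 4.0%, against 4.74% and 5.51% of all genes). In VvSUC27-OE against VvSUC11-OE, 8 of 150 rose and 13 fell (5.33% and 8.67%, against 3.67% and 6.99%). These last shares lay near those of all genes. In VvSUC27-OE against VvSUC12-OE, 0 of 148 heat shock genes rose and 11 fell by limma (0% and 7.43%, against 2.64% and 4.16%). There, 38 heat shock genes were higher and 55 lower at an unadjusted p under 0.05, a cut not set against all genes. ER24 was likewise lower in VvSUC27-OE than in VvSUC12-OE, by 0.39, a size that would not pass the DEG threshold.

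Ethylene genes other than ER24 had more lower than higher calls. Of 173 such genes in the annotation, 130 were tested in VvSUC11-OE, where 16 rose and 23 fell (12.3% and 17.7%). Of 129 tested in VvSUC12-OE, 12 rose and 26 fell (9.30% and 20.2%), and of 130 in VvSUC27-OE, 8 rose and 35 fell (6.15% and 26.9%). Both directions exceeded the share of all genes given above in each line. The median log2 fold changes were -0.12, -0.16 and -0.14. The VvSUC27-OE counts rested in part on single libraries, with 5, 5 and 4 higher calls without VvSUC27-OE replicate 1, 2 or 3 and 23 lower calls without WT replicate 1 or 3. A filter that required a mean of 50 scaled counts left 14 lower calls in VvSUC11-OE, 6 higher and 14 lower in VvSUC12-OE, and 4 higher and 21 lower in VvSUC27-OE, so many of the calls were of scarce genes. Without that filter, genes named as ethylene response factors gave 17, 20 and 24 of the lower calls, and the roles differed in direction. The ACC oxidase homologs had more higher than lower calls, with 4 and 0, 4 and 1, and 5 and 2. Ethylene itself was not measured in the files used here.

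The last step of ethylene synthesis held the ethylene genes nearest to ER24. ACC oxidase turns ACC (1-aminocyclopropane-1-carboxylate) into ethylene, and 2 of 9 tested ACC oxidase genes rose in every line. That share was 22.2%, against 7.39, 3.31 and 3.8% of all genes. The ACC oxidase gene5431 was at 27.1, 23.2 and 26.6 FPKM in the WT, 151, 140 and 148 in VvSUC11-OE, 122, 119 and 117 in VvSUC12-OE and 114, 119 and 127 in VvSUC27-OE. It rose by 2.5 (FDR = 1.36e-14), 2.18 (FDR = 1.21e-16) and 2.21 (FDR = 3.11e-16), and its VvSUC12-OE and VvSUC27-OE libraries overlapped. Its profile differed from that of ER24 by 0.442 on average, the nearest of the ethylene genes, at place 17 of 16500. The more abundant gene4138 was at 61.2, 61.2 and 58.1 FPKM in the WT, 403, 419 and 410 in VvSUC11-OE, 170, 162 and 162 in VvSUC12-OE and 171, 173 and 156 in VvSUC27-OE. It rose by 2.76, 1.42 and 1.45 (FDR = 1.05e-16, 7.99e-16 and 9.19e-15), and VvSUC11-OE stood apart from the other lines, which it did not for ER24. The summed level of the 11 ACC oxidase genes was 138 to 145 FPKM in the WT, 601 to 607 in VvSUC11-OE, 320 to 333 in VvSUC12-OE and 350 to 359 in VvSUC27-OE. Scarce ACC oxidase genes fell, 2 in VvSUC11-OE and 2 in VvSUC27-OE (22.2% of those tested in each, against 7.33% and 7.21% of all genes).

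ACC synthase, which makes ACC and is usually the limiting step, went the other way. Of 4 tested genes, 0 rose in any line, and 0, 2 and 3 fell in the lines by limma, while 3 were lower at an unadjusted p under 0.05 in each. The shares that fell were 0, 50 and 75%, against 7.33, 5.3 and 7.21% of all genes. With 4 genes tested, 1 call moves the share widely. The most abundant, gene19402, was at 17.7 to 19.7 FPKM in the WT, 12.3 to 16.3 in VvSUC11-OE, 11.2 to 11.8 in VvSUC12-OE and 6.26 to 7.82 in VvSUC27-OE, with log2 fold changes of -0.39, -0.70 and -1.45, the last of them called (FDR = 3.04e-10). ACC synthase 3 (gene6429) was at 2.55 to 3.23 FPKM in the WT and fell by 2.45 in VvSUC12-OE (FDR = 2.68e-07) and by 3.26 in VvSUC27-OE (FDR = 1.64e-07). In VvSUC11-OE its log2 fold change was -0.94. The ACC oxidase homologs, relatives that are not known to make ethylene, gave 4 higher and 0 lower calls of 9, 4 and 1 of 9, and 5 and 2 of 10. The shares that rose were 44.4, 44.4 and 50%, against 7.39, 3.31 and 3.8% of all genes. Those that fell were 0, 11.1 and 20%, against 7.33, 5.3 and 7.21%. Their most abundant gene, gene23071, rose in VvSUC11-OE (1.02, FDR = 6.83e-12) and had log2 fold changes of 0.28 and -0.18 in the other lines.

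Receptors and signalling genes carry the ethylene signal to the nucleus. Of 8 receptor genes, 1 fell in VvSUC11-OE (12.5%, against 7.33% of all genes). In VvSUC12-OE and VvSUC27-OE 0 were called, with 4 and 5 past an unadjusted p of 0.05. The one that fell was gene22852, annotated as an ethylene-binding protein, at 62.4, 64.6 and 66.1 FPKM in the WT and 25.6, 25.6 and 24.0 in VvSUC11-OE (log2 fold change -1.38, FDR = 7.65e-11). In VvSUC12-OE and VvSUC27-OE its log2 fold change was -0.51 and -0.88. Of 21 tested signalling genes, 0 were DEGs by limma in any line. At an unadjusted p under 0.05 there were 10, 13 and 12, a cut not set against all genes. The most abundant were gene19867 (EIN3-binding F-box protein 2, which marks the EIN3 factor for degradation) and gene16282 (EIL1, a factor of the EIN3 family), with log2 fold changes between -0.52 and -0.15 in the 3 lines.

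Genes annotated as ethylene response factors made up most of the lower calls. They were taken by name, which covers a broad family with members such as CRF1, WRI1 and SHINE 3. Whether each of them responds to ethylene was not tested. Of 61 tested, 6 rose and 17 fell in VvSUC11-OE. Of 62 tested in the other lines, 6 rose and 20 fell in VvSUC12-OE, and 1 rose and 24 fell in VvSUC27-OE. The shares that fell were 27.9, 32.3 and 38.7%, against 7.33, 5.3 and 7.21% of all genes. The shares that rose were 9.84, 9.68 and 1.61%, against 7.39, 3.31 and 3.8%. The median log2 fold changes were -0.20, -0.43 and -0.33. The factor gene18340, annotated as ERF 4-like, was at 464, 444 and 476 FPKM in the WT, 249, 260 and 281 in VvSUC11-OE, 185, 188 and 196 in VvSUC12-OE and 133, 135 and 142 in VvSUC27-OE. The 4 groups did not overlap, and it fell by 1.39 in VvSUC12-OE (FDR = 4.08e-17) and by 1.77 in VvSUC27-OE (FDR = 6.07e-18), with -0.82 in VvSUC11-OE. ERF6 (gene1195) was at 417 to 445 FPKM in the WT, 800 to 836 in VvSUC11-OE, 677 to 714 in VvSUC12-OE and 757 to 824 in VvSUC27-OE, and its log2 fold changes of 0.92, 0.63 and 0.86 stayed under the threshold. The largest change among factors that averaged 50 scaled counts or more was that of gene14803 (ERF025-like), at 8.43 to 8.63 FPKM in the WT and at 2.74 to 3.18, 1.10 to 1.51 and 0.227 to 0.407 in the lines. It fell by 1.55, 2.80 and 4.69 on the log2 scale.

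AP2-like and RAV factors, which share the DNA-binding AP2 domain, gave 3 higher and 3 lower calls of 12 in VvSUC11-OE, and 0 higher and 3 lower calls of 11 in each of the other lines. The shares that rose were 25, 0 and 0%, against 7.39, 3.31 and 3.8% of all genes. Those that fell were 25, 27.3 and 27.3%, against 7.33, 5.3 and 7.21%. RAV1 (gene9749) was at 8.98, 8.59 and 10.1 FPKM in the WT, 0.644, 0.459 and 0.563 in VvSUC11-OE and 0.203, 0.205 and 0.0688 in VvSUC12-OE. In VvSUC27-OE it was listed at 0 in 2 libraries and at 0.0360 FPKM in the other, with 1 scaled count in all against 245 to 285 per WT library. Among the other genes annotated as ethylene-responsive, 1 of 6 rose in VvSUC11-OE (16.7%, against 7.39% of all genes) and 1 of 5 fell in VvSUC27-OE (20%, against 7.21%). The latter was gene2211, a late embryogenesis-like protein, at 81.7 to 86.5 FPKM in the WT and 28.1 to 33.3 in VvSUC27-OE (log2 fold change -1.49, FDR = 8.29e-13). The seed markers were also lowest in VvSUC27-OE, at 250 to 252 FPKM against 455 to 480 in the WT, and their part in this difference was not tested.

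In Arabidopsis, MBF1c has been linked to trehalose, salicylic acid and DREB2-type factors. The list made for these links took WRKY factors as a whole family by name. They were 43 of its 59 genes tested in VvSUC11-OE. Heat stress factors were counted among the heat shock genes and not in this list. In VvSUC11-OE, 9 of the 59 rose and 12 fell (15.3% and 20.3%, against 7.39% and 7.33% of all genes). In VvSUC12-OE, 1 of 56 rose and 10 fell (1.79% and 17.9%, against 3.31% and 5.3%). In VvSUC27-OE, 2 of 56 rose and 12 fell (3.57% and 21.4%, against 3.8% and 7.21%). Of 10 tested trehalose-phosphate synthase genes, 0 rose and 1 fell in each line, and 1, 1 and 2 were higher and 5, 5 and 6 lower at an unadjusted p under 0.05. The share that fell was 10%, near the 7.33, 5.3 and 7.21% of all genes. The most abundant, gene20642, was at 96.5 to 97.5 FPKM in the WT and had log2 fold changes of -0.19, 0.01 and -0.07, and gene18654 (trehalose-phosphate synthase 1) had 0.56, 0.29 and 0.20. Of the DREB2 genes, 1 of 4 tested rose in VvSUC11-OE (25%, against 7.39% of all genes, and a single call). In VvSUC12-OE and VvSUC27-OE, 0 of 3 and 0 of 2 were called by limma, with 1 past an unadjusted p of 0.05 in each. The most abundant of them by its mean over the 12 libraries, gene13851, was at 3.44 to 4.42 FPKM in the WT with log2 fold changes of -0.38, -0.26 and 0.12. The next, Solanum_lycopersicum_newGene_1845, was at 1.93 to 2.40 FPKM in the WT with log2 fold changes of 0.37, 0.84 (FDR = 5.88e-06) and 0.51, none of them called. The salicylic acid marker PR-1 (gene17023) was at 37.2 to 41.4 FPKM in the WT and had log2 fold changes of 0.79, 0.36 and 0.97, none of them past the threshold, and a PR-1-like gene (gene17024) rose in VvSUC11-OE at 1.02 (FDR = 3.59e-05). WRKY factors, which act in defence and senescence, gave 7 higher and 11 lower calls of 43 in VvSUC11-OE, 1 and 9 of 41 in VvSUC12-OE, and 2 and 11 of 42 in VvSUC27-OE. The lower calls of the whole list were thus mostly those of WRKY factors, 11 of 12, 9 of 10 and 11 of 12 in the lines.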

How the data were processed

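Per the paper's methods, the authors used TopHat2 to map the reads to the tomato genome build SL2.50, and the FPKM they deposited were made with cuffnorm. The deposited counts had been scaled to a common library size and rounded by the authors, so they were treated as a score, called scaled counts, and count models were not used. The precision of a value is given by its spread over 3 libraries, described as biological replicates. How many plants gave the fruits of a group is not stated in the sources used here. The spread, SE and FDR may therefore measure differences between fruits or libraries and not between plants. Of the 22827 genes deposited, 1153 are not in the reference annotation but were assembled from the reads. Columns that hold EBSeq results of the authors (FDR and log2 fold change) were not used, nor were partial copies of the main table.

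Differences were fitted with limma 3.58.1 in R 4.3.3, with the package data.table in version 1.17.8, on log2(scaled count + 1), with lmFit and eBayes with a trend, on the 6 libraries of each comparison. Genes with fewer than 3 libraries at 10 scaled counts or more were left out, and DEGs were called at an FDR (Benjamini-Hochberg, over all genes tested) under 0.01 and an absolute log2 fold change above 1. The fold changes of low genes are understated by the pseudocount of 1. The fit was also run on simulated counts with a fixed spread and large changes in genes that averaged 50 scaled counts or more. That run does not bear on calls of scarce genes or on calls near the threshold. Heat shock, ethylene, bridging factor and marker lists were made from words in the deposited NR annotation. The genes named were ER24, the other bridging factors, the 8 nearest profiles with an informative annotation, in each role the 2 tested genes with the highest mean FPKM and the DEG with the largest change against the WT (averaging 50 scaled counts or more), and the 2 most abundant genes of each kind in the Arabidopsis MBF1c list. The gene, the lists and the rules were chosen with earlier results of these data known. RefSeq symbols were found for 4 of 5 bridging factor genes through KEGG gene identifiers. The alternatives were a pseudocount of 5, no filter, an average of 50 scaled counts or more, log2(FPKM + 0.1), rescaling to the same total, median-of-ratios rescaling, a fit of all 12 libraries, a replicate block and leaving out each library. The transgenes and the reads were not analysed here.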

Additional observations from a re-analysis of the deposited data

Results flagged for a closer look

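Among the genes named, 26 differences between 2 transgenic lines passed the DEG rule in limma's direct test of those lines (all adjusted p-values at or below 0.00438, Benjamini-Hochberg), so the difference from the WT was not the same in both. ER24 and the genes named only for their likeness to it are left out. All are log2 fold changes. Some of these genes were named for a large change against the WT in the same data, so the count does not measure how often the lines differ. By the same rule, 4.74% of all genes rose and 5.51% fell in VvSUC12-OE against VvSUC11-OE. The shares were 3.67% and 6.99% in VvSUC27-OE against VvSUC11-OE, and 2.64% and 4.16% in VvSUC27-OE against VvSUC12-OE. No cause was tested.

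In VvSUC12-OE against VvSUC11-OE, the HSP90 gene6983 was higher by 1.21 and the small heat shock gene16550 by 1.08, while ACC synthase 3 (gene6429, -1.50), the ACC oxidase gene4138 (-1.34), the AP2-like factor gene9124 (-1.45), RAV1 (gene9749, -1.93) and ERF025-like (gene14803, -1.25) were lower.

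In VvSUC27-OE against VvSUC11-OE, the BiP gene21243 was higher by 1.04. Lower heat shock genes were gene21843 (-1.78), gene16550 (-1.22), the DnaJ genes gene14123 (-1.32) and gene12024 (-2.65), and gene2230 (-2.29). Lower ethylene genes were gene19402 (-1.06), gene6429 (-2.32), gene23071 (-1.20), gene21675 (-2.10), gene4138 (-1.31), gene9749 (-3.65, fitted against 1 scaled count in VvSUC27-OE and so set in part by the pseudocount) and gene14803 (-3.14).

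In VvSUC27-OE against VvSUC12-OE, gene16550 (-2.30), gene12024 (-1.69), gene2230 (-2.68), gene21675 (-1.28), gene14803 (-1.90) and gene2211 (-1.33) were lower.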

How the results depend on the processing

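The log2 fold change of ER24 against the WT lay between 2.87 and 3.06 in VvSUC11-OE, 2.89 and 3.08 in VvSUC12-OE and 2.5 and 2.7 in VvSUC27-OE when each library was left out in turn, and with log2(FPKM + 0.1) it was 3.12 in VvSUC12-OE. The replicate numbers did not pair the libraries: deviations of same-numbered libraries correlated at -0.079 to 0.082, and in 0 of 6 comparisons were all pairs over 0.1. With the replicate number as a block, ER24 stood at 2.97, 2.99 and 2.60, and the heat shock calls stayed at 30 higher and 2 lower, 34 and 1, and 29 and 8.

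Lower heat shock calls in VvSUC11-OE numbered 1 with a pseudocount of 5, with no filter and with FPKM, and 1 to 2 when a library was left out (1 without WT replicate 1 or 3). In VvSUC12-OE they were 3 with no filter and 1 to 2 with a library left out (2 without VvSUC12-OE replicate 1). Higher heat shock calls in VvSUC27-OE against VvSUC12-OE numbered 1 with no filter. With only genes that averaged 50 scaled counts or more, ethylene calls against the WT were 14 lower in VvSUC11-OE, 6 higher and 14 lower in VvSUC12-OE, and 4 higher and 21 lower in VvSUC27-OE. Under the same filter they were 4 higher and 10 lower in VvSUC12-OE against VvSUC11-OE (7 and 20 without it), 2 and 19 in VvSUC27-OE against VvSUC11-OE (4 and 30), and 0 and 9 in VvSUC27-OE against VvSUC12-OE (3 and 17). This filter tests fewer genes. With a library left out, ethylene calls in VvSUC27-OE against the WT were 4 to 8 higher (5, 5 and 4 without VvSUC27-OE replicate 1, 2 or 3) and 23 to 36 lower (23 without WT replicate 1 or 3). Higher ethylene calls were 4 to 7 in VvSUC12-OE against VvSUC11-OE (4 without VvSUC11-OE replicate 2), and 0 to 4 in VvSUC27-OE against VvSUC12-OE (0, 0 and 1 without VvSUC27-OE replicate 1, 2 or 3). Over all alternatives, the median of the heat shock genes stayed between 0.14 and 0.32 and that of the ethylene genes between -0.25 and -0.06. Of 52 calls of named genes against the WT, 708 refits changed 10 calls, in 6 of the 52 results, and reversed 0. These were of gene27178, gene6324 in 2 lines, gene23071, gene9124 and gene17024, all within 0.03 of the threshold of 1. Of the 8 genes with an informative annotation nearest to ER24, 6 stayed with the largest difference in any library as the measure, 6 with FPKM and 7 with an average of 10 scaled counts or more.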
